A study of Mus musculus with 10 samples.

Results

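The genes described are Vegfa and its relative Vegfb, the hypoxia factor subunits Hif1a and Arnt, the oxygen-sensing hydroxylases Egln1, Egln2 and Egln3, and the ubiquitin ligase subunit Vhl. They are 8 of the 17658 genes in the authors' expression table. They were chosen by name after their levels, their change with anti-IgM and their genotype difference were known. The values of these genes are therefore given as descriptions without p-values. The gene lists set beside them were also chosen with earlier results of these data known. Adjusted p-values and counts of called genes in those lists are likewise descriptions and no support. RNA was measured in B cells from spleen and lymph node of C57BL/6 mice aged 10 weeks, enriched magnetically by removing other cells. The groups were wild type (Nr4a1+/+) and knockout (Nr4a1-/-), each as 1 unstimulated library and as 4 libraries lettered A to D that had received 10 µg/mL anti-IgM for 2 h. The labels give no culture time for the unstimulated libraries. The change called here the change with anti-IgM may therefore include an effect of 2 h in culture, which was not tested. Anti-IgM is an antibody that crosslinks the B cell antigen receptor. Nr4a1 encodes Nur77, an orphan nuclear receptor induced by that receptor, and the study was designed to look for inducible genes with a genotype difference. The labels do not say whether the letters stand for separate mice, so p-values measure only the spread between these libraries, which may be technical. A gene is called here when its adjusted p across all 10225 genes tested was under 0.05 and, for the change with anti-IgM, its size on the log2 scale was also 1 or more.

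In cells with enough oxygen, the EGLN hydroxylases modify the HIF1A protein, the VHL ligase then marks it, and it is degraded. When oxygen is short the protein is kept, pairs with ARNT and activates genes for blood vessel growth and glycolysis. Vegfa encodes vascular endothelial growth factor A, the main secreted signal for vessel growth, and it is a textbook target of this factor. In lymphocytes HIF1A protein can also accumulate after antigen receptor signalling without a lack of oxygen. Most of this control acts on protein, which RNA levels do not report.

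Nr4a1 itself did not separate the genotypes. It stood at 126 FPKM (fragment counts divided by transcript length and by the library total) in both unstimulated libraries. After anti-IgM it was 808 ± 47.2 FPKM (SD, n = 4) in wild type, against 702.1 ± 44.6 FPKM (SD, n = 4) in the knockout-labelled libraries, with overlapping ranges. A gene-level value does not show whether the transcript is intact, so the genotype is used here as labelled. Markers of B cells summed to 1302 to 1427 FPKM in the stimulated libraries and to 3804 and 4032 FPKM in the unstimulated ones, and all 6 were called lower with anti-IgM. All 6 T cell markers and 3 of 4 NK cell markers stayed under 1 FPKM in every library. Summed FPKM over all genes was 557214 to 571784 in the stimulated libraries, 595500 in the unstimulated knockout-labelled library and 674961 in the unstimulated wild-type library. Relative depth ran from 0.913 in that wild-type library to 1.06, and absolute depth is unknown.

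The promoters of both VEGF genes are shown because these 2 ligands were the members that rose with anti-IgM, as did 7.94% of all genes tested. Each sequence is the 250 bases before the gene's start in RefSeq (mouse build GRCm38.p6), 5′ to 3′ on the gene's strand. Capitals mark the HIF core (ACGTG or GCGTG on either strand) and the GC box (GGGCGG on either strand), the binding sequence of SP-type factors.
Vegfa, chr17:46032378-46032627, minus strand: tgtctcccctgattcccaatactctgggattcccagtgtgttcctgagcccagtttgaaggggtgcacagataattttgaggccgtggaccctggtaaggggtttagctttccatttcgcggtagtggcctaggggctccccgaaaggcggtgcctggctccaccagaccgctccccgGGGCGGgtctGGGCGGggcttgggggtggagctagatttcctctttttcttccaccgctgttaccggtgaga
Vegfb, chr19:6987652-6987901, minus strand: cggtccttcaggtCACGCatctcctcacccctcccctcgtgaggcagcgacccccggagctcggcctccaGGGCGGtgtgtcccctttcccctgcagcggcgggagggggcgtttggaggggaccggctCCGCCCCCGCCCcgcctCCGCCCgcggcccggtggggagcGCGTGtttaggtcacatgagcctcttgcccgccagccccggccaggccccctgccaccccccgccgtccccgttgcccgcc
The Vegfa window held 2 GC boxes, at -72 and -62 bases from the start, and no HIF core. The Vegfb window held 4 GC boxes, some of them adjoining, and 2 HIF cores at -237 and -81. The absence of the letters says only that they are not in this window. A second annotated Vegfa start had 2 HIF cores in its window (chr17:46025164-46025413), at -218 and -211. That window lies inside the gene span given below, so it is not sequence upstream of the gene. Of 32851 windows of the same length over all annotated starts, 38.6% held a HIF core and 32.7% a GC box.

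The stricter core ACGTG was present in 16.6% of all windows. The pieces below show it in capitals in 4 of the other genes, because these encode the factor and its hydroxylases rather than a ligand. They are printed as read on the gene's strand, and the number after each name is the distance from the start that the RefSeq promoter table uses. For Hif1a and Arnt that start lies inside the gene span given below, downstream of its outermost annotated start.
Hif1a, -134, chr12:73907723-73907747: acagacaagcACGTGagcggggcag
Egln1, -68, chr8:124949308-124949332: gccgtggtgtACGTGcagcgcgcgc
Egln2, -48, chr7:27166836-27166860: cctcctgtcaACGTGcggttcgcgc
Egln3, -229, chr12:54204089-54204113: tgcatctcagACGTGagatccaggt
In Hif1a the core shown lies in CACGTG, which reads the same on both strands, and another ACGTG lay at -70. The stricter core was also in the window of the second Vegfa start, inside the gene span, at -211 on the opposite strand. The Vhl window held 7 GC boxes and no HIF core, and the Arnt window held 1 HIF core at -29. The NR4A binding sequence NBRE (AAAGGTCA, either strand) was in none of the 10 windows of the 8 genes and in 1.34% of all windows. A match is a run of letters and no evidence of binding.

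Vegfa (chromosome 17, 46016993 to 46032377) went from one of the lower members to the highest. Its level was 5.33 FPKM without stimulation in wild type and 5.16 FPKM in the unstimulated knockout-labelled library. With anti-IgM, wild-type A to D held 57.41, 49.66, 53.09 and 51.57 FPKM. Knockout-labelled A to D held 87.91, 71.98, 78.64 and 82.93 FPKM. Every stimulated library was far above both unstimulated ones, and the lowest stimulated knockout-labelled library lay above the highest wild-type one. The mean after anti-IgM was 52.9 ± 3.30 FPKM (SD, n = 4) in wild type, 9.93 times its unstimulated library. It was 80.4 ± 6.75 FPKM (SD, n = 4) in the knockout-labelled libraries, 15.6 times theirs.

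On the log2(FPKM + 1) scale used for all changes here, Vegfa rose by 3.40 (SE 0.12) with anti-IgM over both genotypes, the 4th largest rise of the 10225 genes tested. After anti-IgM it was 0.59 higher in the knockout-labelled libraries (SE 0.063, 95% interval 0.45 to 0.73), a ratio of means of 1.52. The unstimulated libraries differed by -0.04 in the same direction of subtraction. The response of the knockout-labelled libraries exceeded the wild-type response by 0.63 (SE 0.14). That value rests on 1 unstimulated library per genotype, assumed to vary like the stimulated ones.

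Vegfb (chromosome 19, 6982472 to 6987651) encodes a VEGF relative that binds VEGF receptor 1 and is linked to fatty acid handling rather than to vessel sprouting. It stood at 4.41 and 5.44 FPKM in the unstimulated wild-type and knockout-labelled libraries. Stimulated wild-type libraries held 19.26, 15.65, 17.85 and 19.45 FPKM, and the knockout-labelled ones 15.76, 17.18, 17.36 and 15.82 FPKM. All 8 were above both unstimulated libraries, and the genotypes overlapped. The rise with anti-IgM was 1.63 (SE 0.094), with folds of 4.09 in wild type and 3.04 in the knockout-labelled libraries. The genotype difference after anti-IgM was -0.12 (95% interval -0.27 to 0.04) and did not pass the threshold.

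The balance of the 2 ligands therefore differed between groups. Vegfa was 1.21 times Vegfb in the unstimulated wild-type library and 0.949 times Vegfb in the knockout-labelled one. After anti-IgM the ratio of FPKM was 2.94 ± 0.216 (SD, n = 4) in wild type, from 2.65 to 3.17. It was 4.88 ± 0.637 (SD, n = 4) in the knockout-labelled libraries, from 4.19 to 5.58, with no overlap.

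**Figure D1:**
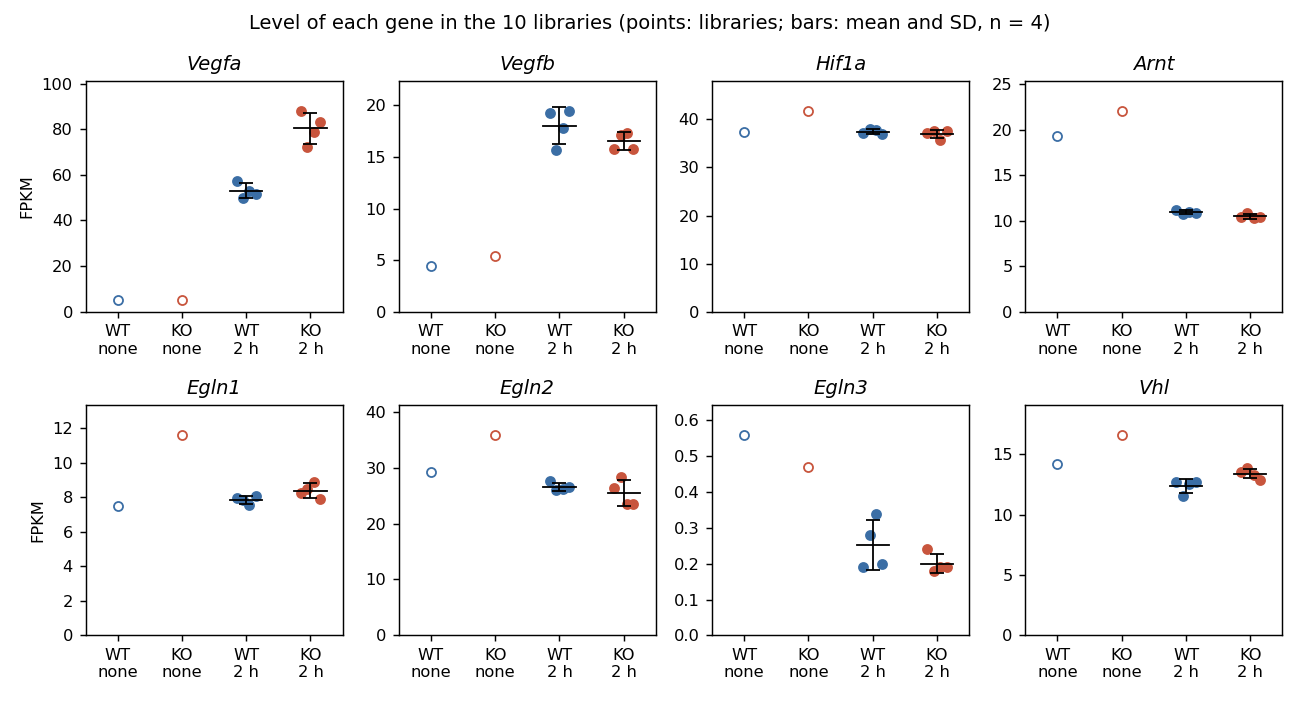
FPKM of each of the 8 genes (y axes, each on its own scale from 0) in unstimulated libraries (open points, 1 per genotype) and libraries with anti-IgM for 2 h (filled points, n = 4), with mean and SD bars. WT is wild type and KO the knockout-labelled libraries. Vegfa alone shows both a rise with anti-IgM and genotype groups far apart, at 49.66 to 57.41 against 71.98 to 87.91 FPKM.

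Hif1a (chromosome 12, 73901324 to 73947554), the oxygen-regulated subunit, stayed near one level. The unstimulated wild-type library held 37.36 FPKM and the knockout-labelled one 41.71 FPKM. With anti-IgM, wild type held 37.15, 37.92, 37.82 and 36.85 FPKM, and the knockout-labelled ones 37.07, 37.52, 35.74 and 37.54 FPKM. The 4 and 4 stimulated libraries overlapped, and the wild-type unstimulated level fell within their range. The change with anti-IgM was -0.08 (95% interval -0.18 to 0.02), and its sign depended on scaling, at 0.08 after rescaling each library to the same sum and 0.09 with median-of-ratios scaling. Without the unstimulated wild-type library it was -0.17. The genotype difference was -0.02 (95% interval -0.08 to 0.04) and was 0.02 with median-of-ratios scaling. In GENCODE M21 an antisense gene overlaps Hif1a. Whether the counting used strand is not given in the sources used here, so reads of that gene may be included.

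Arnt (chromosome 3, 95434367 to 95497240), the constitutive partner subunit, was lower after anti-IgM. It held 19.31 and 22.05 FPKM in the unstimulated wild-type and knockout-labelled libraries. After stimulation the 4 wild-type libraries held 11.23, 10.70, 10.91 and 10.83 FPKM, and the knockout-labelled ones 10.36, 10.85, 10.31 and 10.38 FPKM. All 8 lay below both unstimulated libraries, at 0.565 times the unstimulated level in wild type and 0.475 times in the knockout-labelled libraries. The fitted change of -0.89 (SE 0.057) missed the required size of 1, so Arnt was not called. It reached -1.01 and was called when the unstimulated wild-type library was left out. The genotype difference after anti-IgM was -0.05 (95% interval -0.14 to 0.03).

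The ratio of Hif1a to Arnt FPKM was 1.93 and 1.89 in the unstimulated wild-type and knockout-labelled libraries. After anti-IgM it was 3.43 ± 0.0999 (SD, n = 4) in wild type, against 3.53 ± 0.0796 (SD, n = 4) in the knockout-labelled libraries. The stimulated genotypes overlapped in this ratio.

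Egln1 (chromosome 8, 124908587 to 124949254) encodes PHD2, the main hydroxylase of HIF1A under normal oxygen. On the log2 scale the unstimulated libraries stood furthest apart for this member, by 0.57, at 7.49 FPKM (wild type) and 11.61 FPKM (knockout-labelled). After stimulation the 4 wild-type libraries held 7.97, 7.82, 7.55 and 8.08 FPKM, and the knockout-labelled ones 8.23, 8.46, 8.90 and 7.90 FPKM. The stimulated genotypes overlapped, with a difference of 0.08 (95% interval -0.02 to 0.18). From its own unstimulated library, Egln1 moved by 0.06 in wild type and by -0.43 in the knockout-labelled libraries. The difference in response, -0.49 (SE 0.10), was called, and it rests on the single unstimulated knockout-labelled library. Without that library the change with anti-IgM turned from -0.18 to 0.06, and it was 0.11 with quantile normalization.

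Egln2 (chromosome 7, 27158658 to 27166802), encoding PHD1, was the most abundant hydroxylase. It held 29.28 and 35.87 FPKM in the unstimulated wild-type and knockout-labelled libraries. Stimulated wild-type libraries held 27.63, 26.01, 26.12 and 26.60 FPKM, and the knockout-labelled ones 26.29, 28.41, 23.54 and 23.50 FPKM. All 8 were below both unstimulated libraries, and the genotypes overlapped. The change with anti-IgM was -0.31 (SE 0.084), under the size required. It was -0.13 without the unstimulated knockout-labelled library and -0.48 without the unstimulated wild-type one. The genotype difference was -0.07 (95% interval -0.20 to 0.07).

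Egln3 (chromosome 12, 54178981 to 54203874), encoding PHD3, which is itself a hypoxia target in many tissues, was barely detected. It held 0.56 and 0.47 FPKM without stimulation. With anti-IgM, wild type held 0.19, 0.28, 0.34 and 0.20 FPKM, and the knockout-labelled ones 0.24, 0.18, 0.19 and 0.19 FPKM. It was below the filter of a mean of 1 FPKM and was the only member not tested.

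Vhl (chromosome 6, 113623994 to 113631634), the substrate-binding subunit of the ligase, varied little. It held 14.17 and 16.63 FPKM in the unstimulated wild-type and knockout-labelled libraries. After stimulation the 4 wild-type libraries held 12.76, 11.55, 12.59 and 12.72 FPKM, and the knockout-labelled ones 13.55, 13.86, 13.34 and 12.90 FPKM. All 8 were below both unstimulated libraries. The lowest knockout-labelled library was just above the highest wild-type one, so the genotypes did not overlap. The difference of 0.11 (95% interval 0.01 to 0.20) did not pass the threshold after adjustment over all genes, but did so with quantile normalization. The change with anti-IgM was -0.24 (SE 0.054), under the size required, and -0.06 with quantile normalization.

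The order of levels, which FPKM allows because it is scaled by length, changed at the top. Without stimulation it ran Hif1a, Egln2, Arnt, Vhl, Egln1, Vegfa, Vegfb and Egln3 in wild type. In the unstimulated knockout-labelled library Vegfb stood just above Vegfa, and with 1 library each no spread can be given. After anti-IgM the order in both genotypes was Vegfa, Hif1a, Egln2, Vegfb, Vhl, Arnt, Egln1 and Egln3, and no neighbours in it overlapped within a genotype.

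Before stimulation the knockout-labelled library was the higher one for 6 members, by 0.25 for Vegfb, 0.15 for Hif1a, 0.18 for Arnt, 0.57 for Egln1, 0.28 for Egln2 and 0.22 for Vhl on the log2 scale. Vegfa (-0.04) and Egln3 (-0.09) were not. These are single libraries, and their summed FPKM also differed, as given above. The difference in response subtracts these unstimulated differences from the stimulated ones, so it is no separate observation. For the 6 higher members the stimulated differences were small, from -0.12 to 0.11. The same 6 had a lower response in the knockout-labelled libraries, with differences in response of -0.37 for Vegfb, -0.17 for Hif1a, -0.24 for Arnt, -0.35 for Egln2 and -0.11 for Vhl, none of them called, besides the -0.49 of Egln1. The median over all genes was -0.10, and after rescaling each library to the same sum it was -0.26 and 6 members were called in place of 2.

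Counts over the members repeat the choice of these genes and are set beside the background only for scale. With anti-IgM 2 of the 7 tested members were called, both higher, against 20.3% of all genes tested (7.94% higher and 12.4% lower). Between genotypes after anti-IgM 1 of 7 was called, Vegfa, against 9.72% of all genes (3.91% higher and 5.81% lower). In the difference in response 2 of 7 were called, Vegfa higher and Egln1 lower, against 18.9% (4.18% higher and 14.7% lower). The 4 and 4 stimulated libraries did not overlap for 2 of 7, Vegfa and Vhl, against 15.5% of genes. All 8 stimulated libraries lay above both unstimulated ones for 2 of 7, against 28.6%, and below them for 3 of 7, against 44.3%. Over all genes tested, the median change was -0.17 with anti-IgM, -0.02 between genotypes and -0.10 in the difference in response.

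**Figure D2:**
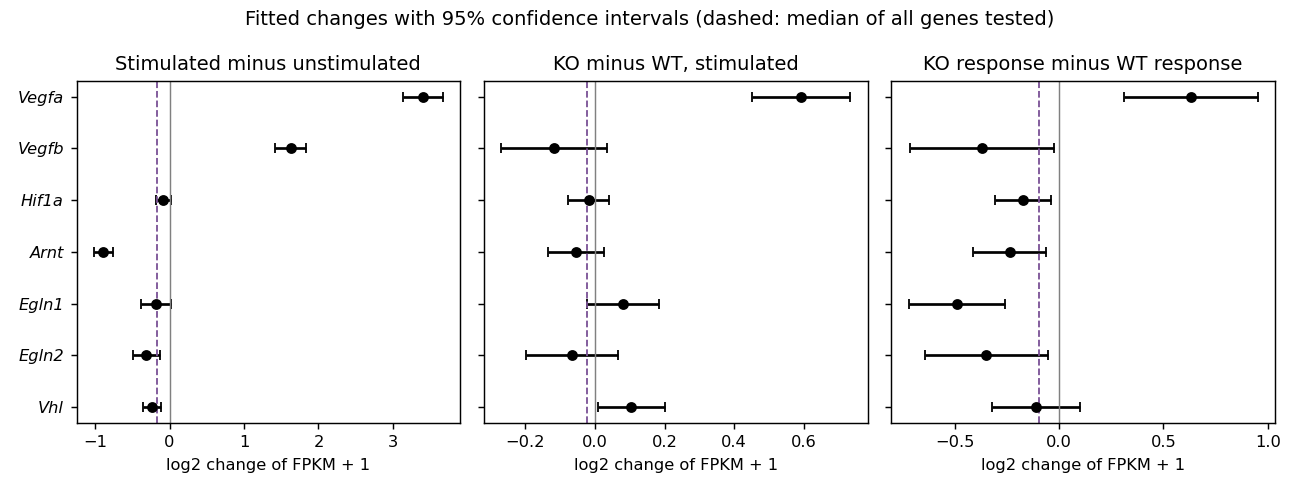
Fitted log2 change of FPKM + 1 (x axes, scales differ between panels) for the 7 tested genes, as points with 95% confidence intervals, for anti-IgM, for genotype after anti-IgM and for the difference in response. The dashed line is the median of all 10225 genes; Vegfa lies far to the right of it in each panel, at 3.40, 0.59 and 0.63.

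By Pearson correlation of log2 levels over the 10 libraries, the genes most like Vegfa were Plek (r = 0.998), Hilpda (0.997), Ksr1 (0.997), Cd72 (0.997) and Il4i1 (0.996). Plek encodes pleckstrin, a protein kinase C substrate of blood cells, Cd72 a B cell inhibitory receptor, and Hilpda a lipid droplet protein known as a hypoxia target. These correlations describe 10 libraries that differ in stimulation, the 2 unstimulated against the 8 stimulated ones, and in genotype. For each of these genes, as for Vegfa, all stimulated knockout-labelled libraries lay above all stimulated wild-type ones. The likeness therefore includes the genotype difference that was known when Vegfa was chosen, and it is no support. Hilpda stood at 21.68 and 22.84 FPKM without stimulation, at 89.1 ± 4.95 FPKM (SD, n = 4) in stimulated wild type and at 113 ± 4.01 FPKM (SD, n = 4) in the stimulated knockout-labelled libraries. Among the members, Vegfb had r = 0.950 to Vegfa, ranking 1250 of the 10224 other genes, and Arnt had r = -0.98.

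Partners of the VEGF ligands were at or near the floor of detection. The list of other VEGF ligands and receptors held 8 genes, and all 8 were under 1 FPKM in every library, so none was tested. Nrp2, a coreceptor, was the highest at 0.42 to 0.79 FPKM in stimulated libraries. Flt1, encoding VEGF receptor 1, held 0.03 and 0.04 FPKM without stimulation and 0.10 to 0.28 FPKM after it. Kdr, encoding VEGF receptor 2, did not exceed 0.08 FPKM.

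Among other HIF subunits and regulators, 13 of 14 listed genes were in the table and 10 were tested. Epas1, encoding the alternative subunit HIF2A, did not exceed 0.22 FPKM. With anti-IgM 2 of the 10 were called higher and none lower, against 7.94% and 12.4% of all genes. The share called in either direction was near the 20.3% of all genes. The coactivator gene Ep300 changed by -0.93 (SE 0.077) and was not called because it missed the required size of 1. Its stimulated libraries held 14.51 to 16.01 FPKM, against 25.74 and 34.44 FPKM in unstimulated wild type and knockout-labelled. Cited2, whose product competes with HIF1A for its coactivators, rose by 1.13 (SE 0.091, limma adjusted p = 4.83e-07). Siah2, a ligase that degrades EGLN proteins, rose by 1.18 (SE 0.067, limma adjusted p = 2.59e-08). Between genotypes none was called, with 0 of the 10 against 9.72% of all genes. The list's median change was 0.0025 with anti-IgM against -0.17 over all genes, and -0.01 between genotypes against -0.02. The difference in response was called for 3: Tceb2, a VHL ligase subunit, at 0.27, Ep300, a coactivator, at -0.40, and Siah2 at -0.30. Siah2 was called in 5 of 18 alternative settings.

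Glycolytic hypoxia targets moved both ways. Of 20 listed, 19 were tested, and with anti-IgM 4 rose and 2 fell, against 7.94% and 12.4% of all genes. The rises were Hk2, the inducible hexokinase, by 1.89 (limma adjusted p = 5.96e-10), Pgam1 by 1.56, Pfkp by 1.50 and Ldha, lactate dehydrogenase A, by 1.32. Ldha went from 230.68 and 227.15 FPKM to 575 ± 8.21 FPKM (SD, n = 4) in wild type and to 570.2 ± 16.2 FPKM (SD, n = 4) in the knockout-labelled libraries. The falls were Pdk1, which restrains pyruvate entry into mitochondria, at -1.54 (limma adjusted p = 7.58e-09), and Pfkfb4 at -1.07. The list's median change was -0.00082 against -0.17 over all genes. Several glycolytic genes, among them Gapdh, Pgk1, Tpi1, Ldha and Pgam1, have near-identical pseudogene copies, so their levels are uncertain to the extent that reads were split among copies.

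Between genotypes after anti-IgM, 1 glycolytic target was called higher and 4 lower in the knockout-labelled libraries, none by more than 0.31, against 3.91% and 5.81% of all genes. Tpi1, triosephosphate isomerase, had a difference of -0.31 (SE 0.051, limma adjusted p = 0.00448). It held 46.10, 45.13, 44.20 and 42.39 FPKM in stimulated wild type and 32.50, 38.91, 35.67 and 35.96 FPKM in the knockout-labelled libraries, with no overlap. Slc2a1, a glucose transporter, changed by -0.20, Gapdh by -0.19, Pgam1 by -0.12 and Pgk1 by 0.10. Of these 5, Tpi1 alone was called in all 19 alternative settings, and Pgk1 was called in 5. The list's median was -0.06 against -0.02 over all genes. For the difference in response 1 was called higher and 6 lower, among them Slc2a1 at -0.74 and Pfkl at -0.53.

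Other hypoxia targets were split by stimulation. Those called between genotypes were higher in the knockout-labelled libraries, while the list's median was lower there. Of 23 listed, 22 were in the table and 17 were tested. With anti-IgM 4 rose and 5 fell, against 7.94% and 12.4% of all genes. Bhlhe40, a repressor transcription factor, rose by 2.48 (limma adjusted p = 6.82e-11), Adm, which encodes the vasodilator adrenomedullin, by 2.17 (limma adjusted p = 5.19e-10), Tfrc, the transferrin receptor, by 1.68 and Ero1l by 1.08. The falls were Narf at -1.98, Mxi1 at -1.49, Ankrd37 at -1.44, and the mitophagy receptor genes Bnip3l at -1.38 and Bnip3 at -1.21. The list's median was -0.17, as over all genes.

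After anti-IgM 4 of the 17 were higher in the knockout-labelled libraries and none lower, against 3.91% and 5.81% of all genes, while the list's median was -0.10 against -0.02 over all genes. Adm held 15.33, 14.81, 14.52 and 13.31 FPKM in stimulated wild type and 25.43, 21.26, 24.23 and 21.51 FPKM in the knockout-labelled libraries. These groups did not overlap, and the difference was 0.64 (SE 0.065, limma adjusted p = 0.000275), called in all 19 alternatives. Adm was also higher without stimulation in the knockout-labelled library, at 4.17 against 2.53 FPKM, and its difference in response was not called. Bhlhe40 differed by 0.19 (SE 0.037, limma adjusted p = 0.0112), called in 18 of 19 alternatives. P4ha1, a collagen prolyl hydroxylase, differed by 0.44 (SE 0.11, limma adjusted p = 0.0345) and Ddit4, an inhibitor of mTORC1, by 0.34 (SE 0.088, limma adjusted p = 0.0432), each called in 10 of 19 alternatives. The difference in response was called higher for 1 of the 17, Tfrc at 0.52, and lower for 3.

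Over both lists of hypoxia targets, 9 of 36 tested genes were called between genotypes, against 9.72% of all genes tested. The lists were chosen with earlier results known, so this count is only a description. That count fell to 4 without wild-type library B, C or D or without knockout-labelled library A, and to 5 without knockout-labelled library D. In the same settings, in that order, the calls over all genes fell from 994 to 712, 766, 724, 732 and 735.

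**Figure D3:**
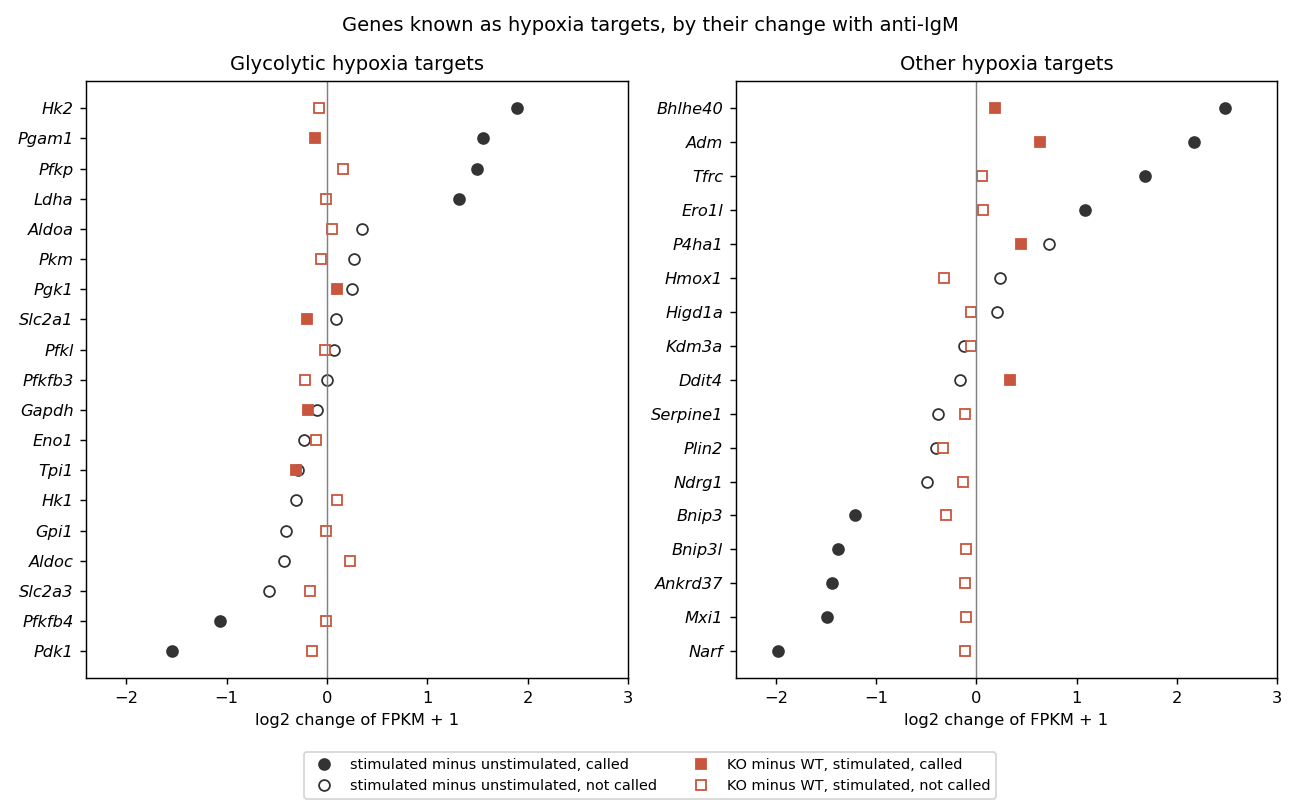
Fitted log2 change of FPKM + 1 (x axis) of 19 glycolytic (left) and 17 other (right) hypoxia targets, ordered by their change with anti-IgM. Black circles are stimulated minus unstimulated and red squares are KO (labelled knockout) minus WT (wild type) after anti-IgM, filled where called. Filled circles lie on both sides of 0 in both panels, from Bhlhe40 at 2.48 to Narf at -1.98.

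Other angiogenic factors were mostly below the filter, with 3 of 12 tested and none called with anti-IgM or between genotypes. Tgfb1 held 74.06 FPKM without stimulation in wild type and 130.17 FPKM in the knockout-labelled library, and 162 ± 5.02 and 179 ± 9.96 FPKM (SD, n = 4 each) after anti-IgM. Its difference in response was -0.66 (SE 0.091, limma adjusted p = 0.00287), and it rests on those unstimulated libraries.

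Myeloid cells also express Vegfa, so their markers are given beside it. The summed level of 9 myeloid markers was 53.4 to 159 FPKM in stimulated wild type and 34.3 to 117 FPKM in the stimulated knockout-labelled libraries, and 88.6 and 105 FPKM without stimulation. Of the 9, none was called in any of the 3 fits. That does not show equal levels, since the 95% interval of the Lyz2 genotype difference ran from -1.65 to 1.10. The list's median genotype difference was -0.18, against -0.02 over all genes. Lyz2, the most abundant of them, held 114.95 FPKM in wild-type library B and 26.59 to 31.91 FPKM in A, C and D. Among stimulated libraries, B had the highest sum and the lowest Vegfa within each genotype. Lyz2, Cd68, Itgam, Emr1, Cd14 and Fcer1g were all highest in B of both genotypes, but the other markers were not. S100a8 (0.56 and 0.41 FPKM) and S100a9 (0.60 and 0.52 FPKM) were lowest in B of wild type and knockout-labelled. Csf1r was highest in wild-type D (3.02 FPKM) and knockout-labelled A (2.06 FPKM). Without both B libraries the Vegfa genotype difference was 0.61, against 0.59 with them. In bulk RNA, more cells of a type and more RNA per cell cannot be told apart. Erythroid markers summed to 7.79 to 123 FPKM, and endothelial and stromal markers to 0.15 to 5.81 FPKM. Both highest sums were in the unstimulated wild-type library, the only unstimulated library of that genotype. The unstimulated knockout-labelled library held 39.9 and 0.67 FPKM.

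**Figure D4:**
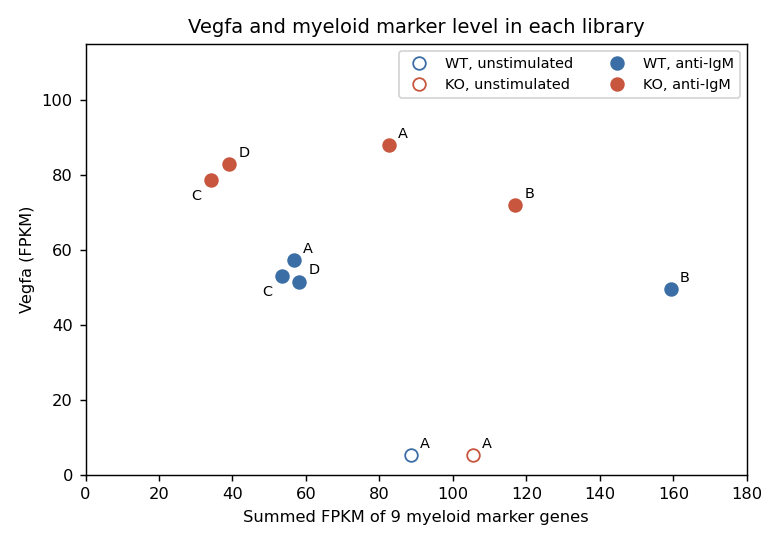
Vegfa FPKM (y axis) against the summed FPKM of 9 myeloid marker genes (x axis), 1 point per library, lettered. Within each stimulated genotype the library with the highest myeloid sum, B, has the lowest Vegfa (49.66 and 71.98 FPKM), and the unstimulated libraries combine sums of 88.6 and 105 with Vegfa of 5.33 and 5.16 FPKM.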

How the data were processed

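RNA was sequenced from enriched B cells in 10 libraries; per the labels' protocols the library kit kept strand. Per the submitters' processing notes, STAR 2.4, RSEM 1.2.14 and build mm10 were used, and the authors deposited gene-level FPKM. Counts were not used, so no count model was fitted and the absolute depth is unknown. Relative depth was recovered from genes whose low FPKM are whole multiples of 1 fragment. Values were transformed as log2(FPKM + 1), which understates changes of low genes, and genes averaging 1 FPKM or more (10225) were tested.

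Limma 3.58.1 in R 4.3.3 (lmFit, eBayes with trend, two-sided, Benjamini-Hochberg adjustment over all tested genes) gave 3 comparisons. Genotype was compared over the 8 stimulated libraries and called at an adjusted p under 0.05. Change with anti-IgM was fitted over 10 libraries with a genotype term and called where the adjusted p was under 0.05 and the size 1 or more. The difference in response was fitted over the 4 group means and called at an adjusted p under 0.05. The fits were tested on simulated data.

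The members and lists were chosen with earlier results of these data known. Named genes were the 8 members, up to 4 called genes per direction from each list in each comparison (otherwise the 2 most abundant), the 5 genes most correlated with Vegfa, and Nr4a1. Kdr, Epas1, Lyz2 and Bnip3 were named after their values were seen. Promoter windows and gene coordinates came from RefSeq tables of GRCm38.p6, where all 8 genes matched. Arnt2 and Epo were not matched. Alternatives covered pseudocount, filter, scaling, robust eBayes, a replicate block, no genotype term and leaving out libraries. The settings without both stimulated A or both stimulated B libraries were chosen after seeing the data.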

Additional observations from a re-analysis of the deposited data

Results flagged for a closer look

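In 6 of 92 groups of 4 libraries 1 library stood apart from the other 3, where chance gives about 1 in 20 groups, or 4.6. Vhl held 11.55 FPKM in wild-type library B, against 12.59 to 12.76 in the others. The myeloid marker sum was 159 FPKM in the same library, against 53.4 to 58.2. Arnt held 10.85 FPKM in knockout-labelled library B, against 10.31 to 10.38. Egln3 held 0.24 FPKM in knockout-labelled library A, against 0.18 to 0.19. Siah2 held 27.85 FPKM in knockout-labelled library C, against 25.25 to 25.33. Mxi1 held 2.56 FPKM in knockout-labelled library A, against 2.88 to 2.90.

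For 15 of the genes chosen by the naming rule the response to anti-IgM differed between genotypes by limma's test of that difference, with 1 unstimulated library per genotype. Outside that rule, Gpi1 (-0.29), Aldoa (-0.29) and the B cell marker Ms4a1 (0.50) were also called and are named after their values were seen. The response in the knockout-labelled libraries minus that in wild type, on the log2 scale, was higher for Vegfa (0.63), Tceb2 (0.27), Pgk1 (0.23) and Tfrc (0.52). It was lower for Egln1 (-0.49), Ep300 (-0.40), Siah2 (-0.30), Slc2a1 (-0.74), Hk2 (-0.31), Pfkl (-0.53), Pgam1 (-0.41), Ndrg1 (-0.57), Mxi1 (-0.45), Bhlhe40 (-0.27) and Tgfb1 (-0.66). Across alternatives, Vegfa, Egln1, Ep300, Slc2a1, Pfkl, Pgam1, Tfrc and Tgfb1 were called in all 18, Tceb2 in 17, and Ndrg1 and Pgk1 in 16 of 18. Bhlhe40 was called in 8 of 18, Siah2 in 5 of 18, Hk2 in 13 of 18 and Mxi1 in 13 of 17. These values move with the levels of both single unstimulated libraries. Their summed FPKM was 674961 in wild type and 595500 in the knockout-labelled library, against 557214 to 571784 in the stimulated libraries.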

How the results depend on the processing

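The members were chosen on these values, so their ranges and calls over the alternatives are a description and no support. Vegfa ranged from 2.78 to 3.72 with anti-IgM, from 0.55 to 0.64 between genotypes and from 0.48 to 0.70 in the difference in response, and Vegfb from 1.17 to 1.98 with anti-IgM. Called members between genotypes went from 1 to 2 with quantile normalization, which added Vhl. For the difference in response they went from 2 to 4 without a filter, 6 after rescaling to the same sum and 4 without both stimulated B libraries.

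Called hypoxia targets went from 15 with anti-IgM to 9 with a pseudocount of 5 and to 9 with a mean of at least 5 FPKM. Between genotypes they went from 9 to 4 without a filter, to between 4 and 8 when 1 library was left out, and to 4 without both stimulated B libraries. For the difference in response they went from 11 to 18 after rescaling to the same sum, 5 with median-of-ratios scaling and 6 without both stimulated A libraries.

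Of all genes, 2078 were called with anti-IgM and 1132 with a pseudocount of 5, 994 between genotypes and 660 without both stimulated B or 573 without both stimulated A libraries, and 1931 in the difference in response and 3630 after rescaling to the same sum. Scaling moved the median of all genes with anti-IgM from -0.17 to between -0.03 and -0.0022, and that of the difference in response from -0.10 to -0.26 after rescaling to the same sum. It also moved the higher and lower split. With anti-IgM it was 812 and 1266, but 1102 and 1071 after rescaling to the same sum, 1050 and 906 with median-of-ratios scaling and 965 and 921 with quantile normalization. Between genotypes it was 400 and 594, but 535 and 401 with median-of-ratios scaling and 478 and 438 with quantile normalization. For the difference in response it was 427 and 1504, but 175 and 3455, 563 and 788, and 874 and 1207 under the same 3 scalings. The cause was not tested.

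Deviations of same-letter libraries correlated weakly, at -0.02, 0.04, 0.01 and -0.12 for letters A to D. The myeloid marker sum nevertheless peaked in stimulated library B of both genotypes (wild type 159 FPKM, knockout-labelled 117 FPKM). These values do not settle whether the letters pair the libraries. With the letter as a replicate block, 740 genes were called between genotypes, 693 of them also without it, and 2039 with anti-IgM. Called members stayed at 1 and 2 under the block. At under 1 FPKM, Egln3 and the VEGF receptors are the least precise.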
